A study of Rattus norvegicus with 6 samples.

Results

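Fatty acid oxidation genes and the transcripts that respond to the nuclear receptor PPAR alpha were examined in the kidneys of 2 inbred groups of rats on a high-salt diet. The list held 37 genes: 23 of mitochondrial beta-oxidation and its carnitine shuttle, 9 of peroxisomal beta-oxidation, and 5 regulators or other PPAR alpha targets. Members were all probe sets of the Affymetrix rat expression array that carry 1 platform gene symbol, that symbol being on the list. This gave 53 probe sets for 36 genes, out of 31099 on the array. Of these, 34 probe sets were mitochondrial, 11 peroxisomal and 8 belonged to the regulators and other targets. The thiolase gene Acaa1a had no probe set of its own. Its only probe set also carries the symbol Acaa1b, so it was left out, as was 1 probe set shared by Acot1 and Acot2 and 1 shared by Eci2 and Eci3. A filter on dim signals kept 45 of the 53 probe sets and 34 genes.

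The S group was the Dahl salt-sensitive rat, an inbred model of salt-induced hypertension. The congenic group is an inbred strain that carries a piece of chromosome 9 from the R strain on the Dahl S background, so that the rest of the genome is meant to be that of S. Each group had 6 male rats, all born on 1 day, weaned at the age of 30 days onto chow holding 2% salt and sacrificed at 53 days. An S rat and a congenic rat shared each cage. Kidney RNA of 2 rats was combined into each of 3 samples per group, 1 array per sample. Both groups were on the salt diet, so no value here compares diets. The study's title places a blood pressure locus in the segment, and the comparison of the strains asks which renal transcripts differ with it. Of the 37 listed genes only Acadl lies on chromosome 9 in the rat assembly GRCr8. Whether it lies inside the introgressed piece was not analysed here.

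Long-chain fatty acids are the main fuel of the proximal tubule, whose cells are packed with mitochondria and peroxisomes. Acyl chains are activated to acyl-CoA, handed over to carnitine, carried into mitochondria and shortened there in repeated rounds of dehydrogenation, hydration, dehydrogenation and thiolysis. Peroxisomes shorten very long and branched chains first and pass the products on. PPAR alpha binds fatty acids and switches on many of these genes, and the coactivator encoded by Ppargc1a amplifies its action together with mitochondrial biogenesis.

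No member differed between the strains at an adjusted p under 0.05. Across the whole array limma called 0 of 18625 probe sets (0%), as did the same fit without moderation, and the smallest adjusted p among the members was 0.71. At an unadjusted p under 0.05, 4 of the 45 member probe sets were lower in congenic kidneys and 0 higher, or 8.89% of them, where the whole array gave 1232 probe sets or 6.61%. The members' share was thus near the background. The 4 probe sets belonged to Ppargc1a (2 of them), Acsl1 and Eci2. Every estimate for the 34 tested genes was smaller than 1.2-fold on the scale of log2(signal + 16), which understates changes of dim probe sets. For 23 of the 34 genes the whole 95% interval lay within 1.2-fold either way, and for all 34 within 1.5-fold.

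The direction of the small differences was uneven. Of the 34 genes, 24 (70.6%) had a negative log2 fold change (congenic minus S) and 10 a positive one, while 52.6% of all 10658 tested genes were negative. With quantile normalization 28 of the 34 (82.4%) were negative and 6 positive, where all genes gave 52.8%, and without congenic replicate 2 it was 21 and 13. The 3 congenic values lay below all 3 S values for 6 member genes (Acsl1, Decr1, Acox3, Ehhadh, Eci2 and Ppargc1a), which is 17.6% of them against 7.07% of all genes. They lay above all S values for 0 member genes, where all genes gave 5.63%. The median log2 fold change was -0.032 over the members and -0.0068 over all tested genes, but without congenic replicate 2 the members' median was -0.0072. Genes of a pathway vary together across arrays, which means that the 34 do not count as separate observations. These shares are given as a description without a test.

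**Figure D1:**
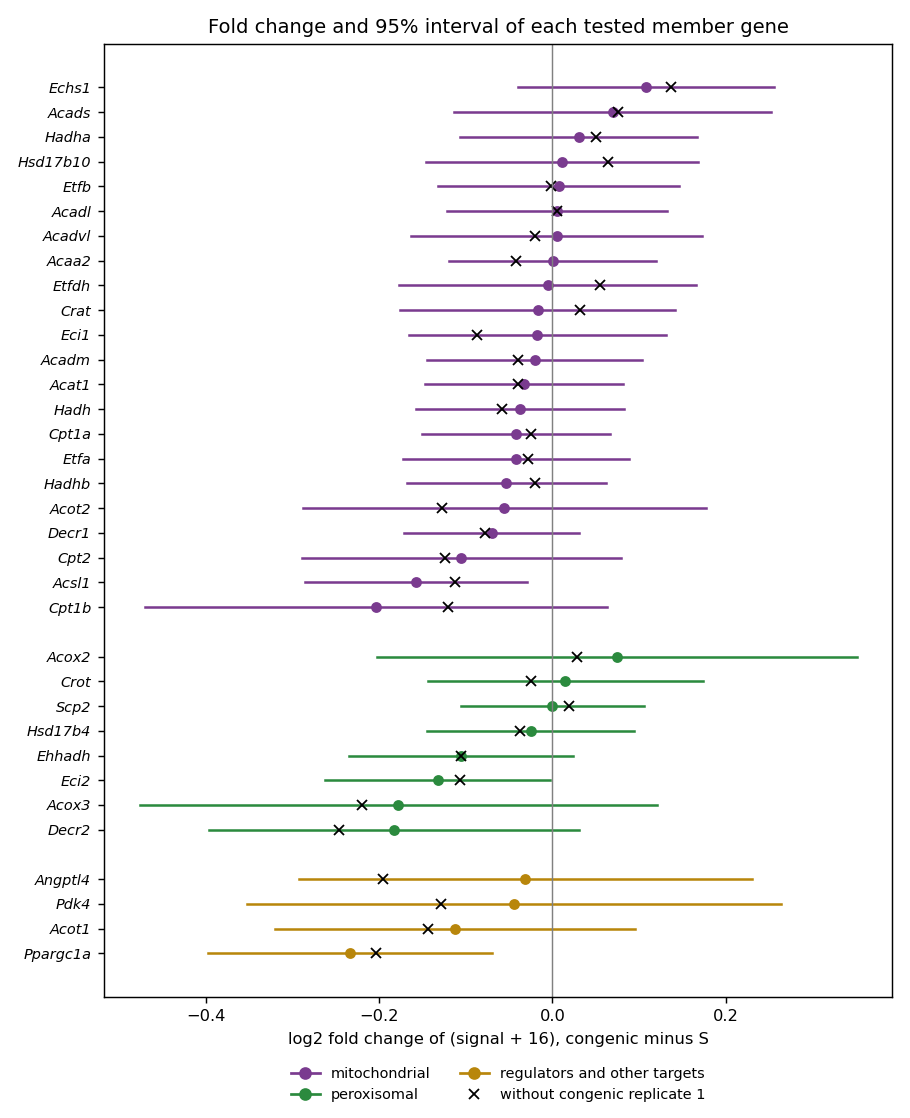
Log2 fold change of (signal + 16), congenic minus S, on the x axis for each of the 34 tested genes, with dots for the estimates, bars for the 95% interval of limma (3 arrays per group) and crosses for the estimate without congenic replicate 1. Estimates run from -0.23 (Ppargc1a) to 0.11 (Echs1), and the bars of Ppargc1a, Acsl1 and Eci2 are the ones that stay below 0.

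The arrays were alike, with Spearman correlations of 0.969 to 0.977 and median signals of 42.9 to 46.0. Kidney markers were present on all 6, for instance uromodulin (Umod) at 6576 to 7010 and megalin (Lrp2) at 4948 to 5719. Congenic replicate 1 carried liver transcripts: the summed signal of 12 liver markers was 11546 there and 588 to 661 on the other 5 arrays. Congenic replicate 3 carried adrenal transcripts, with a sum over 6 markers of 5507 against 134 to 143. For actin, the ratio of 3' to 5' signal, which increases as RNA degrades, was 6.54 to 9.42 on S and 6.15 to 7.17 on congenic arrays, and the highest value was that of S replicate 1.

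Liver is rich in the enzymes on the list, so the members were compared on congenic replicate 1 with the other 5 arrays. The signal there divided by the mean of the other 5 had a median of 0.997 over the 34 genes and ran from 0.784 for Cpt1b to 1.3 for Angptl4, whereas the 11 tested liver markers ran from 1.33 to 197 with a median of 23.6. For 0 members was congenic replicate 1 the highest array by over 1.3 times the next. This was so for 10 of the 11 liver markers. The other was Cyp2c11, at 1.33, which was highest on S replicate 1, and the ratio of Angptl4 was close to it. On congenic replicate 3 the members ran from 0.812 to 1.16, and the 5 tested adrenal markers from 29.7 to 113. Most of these markers were dim elsewhere and most members bright. Off congenic replicate 1 the liver marker Ahsg was at 3.59 to 16.1 and the member Acadm at 3845 to 4372. The same added signal gives a far smaller ratio for a bright gene, so the ratios are not like for like. The part of liver and adrenal RNA in the members was not tested.

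**Figure D2:**
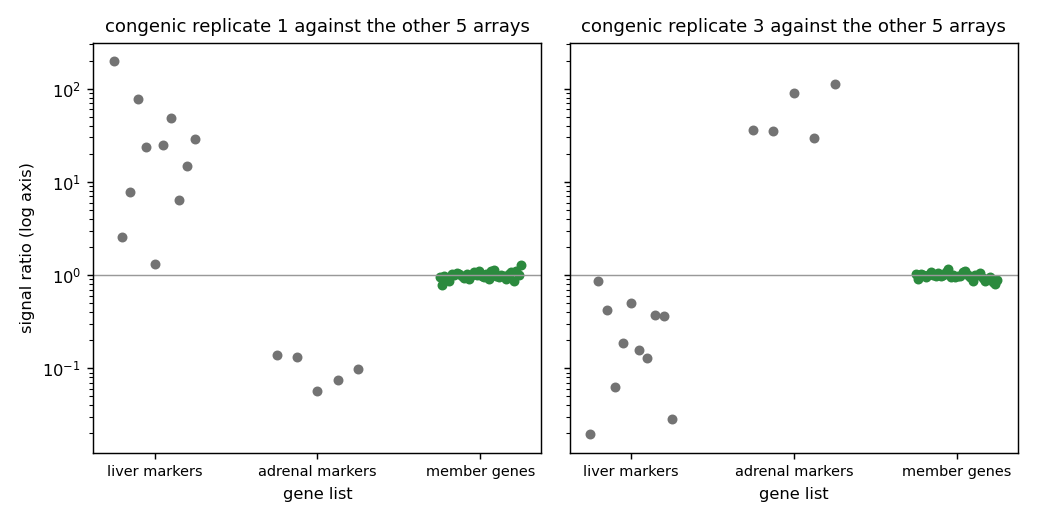
Signal on congenic replicate 1 (left) and congenic replicate 3 (right) divided by the mean of the other 5 arrays, on a log axis, with 1 point per gene for 11 liver markers, 5 adrenal markers and 34 member genes. The liver markers reach 197 on the left and the adrenal markers 113 on the right, while the members stay between 0.784 and 1.3 in both panels. Most markers are dim on the other arrays and most members bright, so the ratios of the lists are not like for like.

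Ppargc1a, among the regulators, had the largest estimate of the 34 tested genes. Its probe set 1393743_at measured 588, 516 and 590 in S pools and 457, 474 and 502 in congenic pools. All 3 congenic values lay below all 3 S values. The means were 565 ± 42.5 in S and 477 ± 22.6 in congenic pools (SD, n = 3 each), giving a log2 fold change of -0.23 with a standard error of 0.073 and a 95% interval of -0.40 to -0.070. Its unadjusted limma p was 0.0098 and its adjusted p 0.71. With each array left out in turn the log2 fold change lay between -0.30 and -0.20, and without congenic replicate 1 it was -0.20.

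A second probe set of Ppargc1a, 1395518_at, gave 359, 366 and 454 in S pools and 306, 354 and 341 in congenic pools. Again the groups did not overlap, with S replicate 3 well above the rest. The log2 fold change was -0.22 (SE 0.098), but -0.12 without S replicate 3. The third probe set, 1370089_at, was dim, with 14.0, 17.4 and 23.8 in S pools and 28.7, 19.0 and 20.7 on the congenic arrays, and was below the filter on low signals.

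The sequence before the start of Ppargc1a is shown because it holds the letters of a cyclic AMP response element, and glucagon and adrenergic signals are known to induce this gene through such an element. Promoter sequences of RefSeq (GRCr8) were found for 33 of the 37 genes, and the 250 bases before each start were searched on both strands for 3 motifs. The palindrome TGACGTCA occurred in 2 of the 33 windows (6.06%), those of Ppargc1a and Acadm, and in 1.59% of all 33469 promoter windows. Both windows are printed 5′ to 3′ in the direction of the gene, with the motif in capitals. The first is chr14:63634058-63634307 on the plus strand, with the motif 181 to 174 bases before the start, and the second chr2:245542865-245543114 on the minus strand, with the motif 103 to 96 bases before it.
Ppargc1a: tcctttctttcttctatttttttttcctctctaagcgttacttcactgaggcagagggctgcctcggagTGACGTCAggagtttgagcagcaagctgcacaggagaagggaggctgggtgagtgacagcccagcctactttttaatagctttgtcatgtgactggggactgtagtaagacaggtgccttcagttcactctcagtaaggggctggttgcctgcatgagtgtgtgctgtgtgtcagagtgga
Acadm: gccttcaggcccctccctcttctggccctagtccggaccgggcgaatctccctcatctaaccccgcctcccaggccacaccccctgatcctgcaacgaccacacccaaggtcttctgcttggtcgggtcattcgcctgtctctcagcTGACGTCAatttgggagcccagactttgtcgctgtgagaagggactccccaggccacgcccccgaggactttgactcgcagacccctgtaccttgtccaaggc

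The direct repeat AGGTCANAGGTCA, the consensus to which PPAR alpha binds with its partner RXR, was in 0 of the 33 windows and in 0.0508% of all windows. Its half-site AGGTCA was in 4 member windows (12.1%), those of Acadvl, Echs1, Eci1 and Hsd17b4, and in 14.1% of all windows. Half-sites inside the direct repeat are counted in the latter share. These windows are short, and a match or its absence says nothing of binding.

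The receptor itself could not be followed. The single probe set of Ppara gave 1.71, 1.62 and 1.32 in S pools and 0.975, 0.985 and 0.629 on the congenic arrays. These signals were far below the filter at 25.6, and they were not tested.

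Angptl4, a secreted inhibitor of lipoprotein lipase and a PPAR target, measured 737, 710 and 715 in S pools and 888, 613 and 642 in congenic pools. The S arrays agreed closely, and congenic replicate 1 lay above all of them while the other two congenic arrays lay below. With all arrays the log2 fold change was -0.031 (SE 0.12, adjusted p 0.97 by limma). Without the liver-bearing congenic replicate 1 it was -0.19, and the unadjusted limma p was 0.015. This is the member whose estimate moved the most when that array was left out.

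Pdk4 encodes a kinase that shuts off pyruvate dehydrogenase and so spares glucose when fatty acids are burnt. Its probe set 1378074_at gave 593, 782 and 916 in S pools and 821, 721 and 654 in congenic pools, so the S arrays alone spanned the congenic range. Its second probe set, 1369150_at, gave 35.97, 48.6 and 62.4 in S pools and 54.3, 51.4 and 36.6 on the congenic arrays. Both probe sets had their lowest signal on S replicate 1 and their highest on S replicate 3. The log2 fold changes were -0.044 (SE 0.14) and -0.026 (SE 0.17). Without S replicate 1 the first was -0.21 and without S replicate 3 it was 0.095, so its sign rested on which S array was kept. Acot1, a cytosolic acyl-CoA thioesterase strongly induced by PPAR alpha ligands in liver, measured 1467, 1207 and 1286 in S pools and 1270, 1329 and 1065 in congenic pools. It had a log2 fold change of -0.11 (SE 0.093) with overlapping groups.

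**Figure D3:**
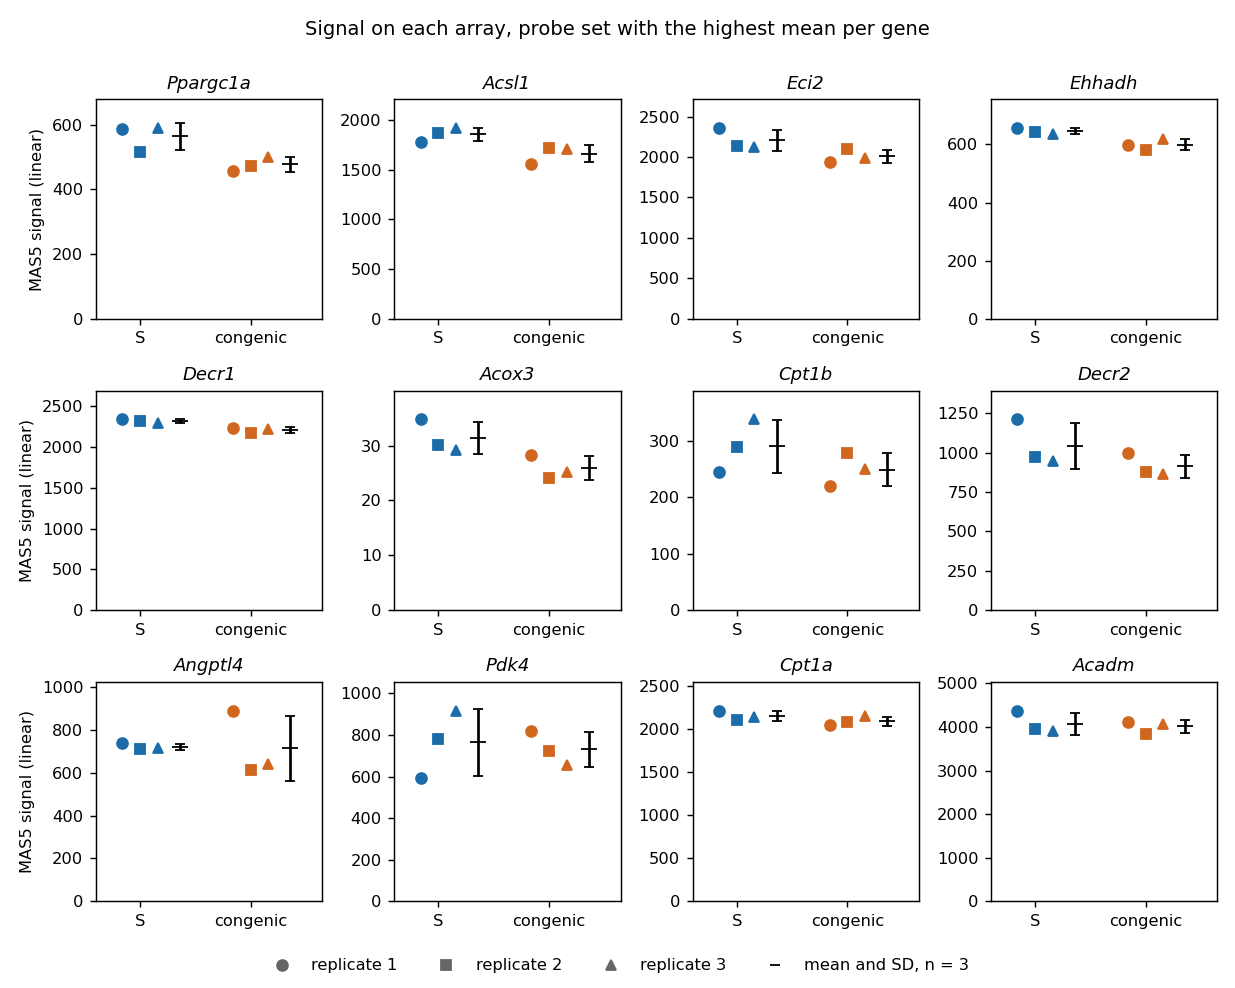
MAS5 signal on a linear scale starting at 0 for 12 member genes on each array, S in blue and congenic in orange, with a marker shape per replicate and the mean and SD of 3 arrays beside each group. The groups do not overlap for Ppargc1a, Acsl1, Eci2, Ehhadh, Decr1 and Acox3, and Pdk4 and Cpt1b spread widely among the S arrays.

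Fatty acids enter the pathway through activation and the carnitine shuttle. All 5 member genes placed in that step had negative log2 fold changes (against 52.6% of all genes), with a median of -0.10. Without congenic replicate 2 this median was -0.064. Without congenic replicate 1, or without S replicate 2, Crat turned positive and 4 of the 5 stayed negative. The step holds further genes outside the member list. Of 17 other tested genes of uptake and activation, 11 were negative and 6 positive, and the carnitine carrier Slc25a20 was at -0.00075. Acsl1, the long-chain acyl-CoA synthetase that activates fatty acids at the outer mitochondrial membrane, measured 1781, 1867 and 1921 in S pools and 1562, 1725 and 1705 in congenic pools. The lowest S value was above the highest congenic value. The means were 1856 ± 70.2 and 1664 ± 89.1 (SD, n = 3 each), giving a log2 fold change of -0.16 (SE 0.058, 95% interval -0.29 to -0.029). The unadjusted limma p was 0.021 and the adjusted p 0.75. Without congenic replicate 1, which had the lowest Acsl1 signal, the log2 fold change was -0.11 and the unadjusted p 0.090. A second Acsl1 probe set, 1388153_at, was at -0.087 (SE 0.096) with overlapping groups, and the third lay below the filter.

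Cpt1a and Cpt1b encode the liver and muscle forms of carnitine palmitoyltransferase 1, the rate-limiting gate into mitochondria. The brighter Cpt1a probe set differed little, with 2208, 2101 and 2138 in S pools and 2039, 2078 and 2147 in congenic pools and a 95% interval of -0.15 to 0.067. The dimmer one, 1367836_at, had the opposite sign at 0.15 (SE 0.12). Cpt1b, named after its values were seen, gave 245, 289 and 338 in S pools and 220, 279 and 250 in congenic pools, a log2 fold change of -0.20 (SE 0.12, adjusted p 0.79 by limma). Its groups overlapped, and the estimate was -0.094 without S replicate 3 and -0.32 without S replicate 1.

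Cpt1b and Ppargc1a are also strongly expressed in brown fat, which lies around the rat kidney. The brown fat marker Ucp1 was present on all arrays, at 81.9, 180.2 and 199 in S pools and 80.2, 66.4 and 157 on the congenic arrays. S replicates 2 and 3 were above S replicate 1 in both Ucp1 and Cpt1b, whereas congenic replicate 2 had the lowest Ucp1 and the highest congenic Cpt1b signal. The brighter Ppargc1a probe set, 1393743_at, was at 588 on S replicate 1, where Ucp1 was low, and at 590 on S replicate 3. Its second probe set, 1395518_at, was at 359 on S replicate 1, the lowest of the S pools, and at 454 on S replicate 3, the highest. The summed signal of 5 brown fat markers ran from 303 to 536 in S and from 311 to 462 in congenic pools, and that of 6 white fat markers from 1514 to 2018 and from 1225 to 1849. The sum of 5 muscle markers was 307 to 385 in S and 270 to 305 in congenic pools. It was carried by the smooth muscle gene Myh11, whose groups overlapped, and by desmin (Des), whose groups did not. The skeletal muscle markers Ckm, Acta1 and Mb were at most 15.2 on any array and below the filter. The part of fat and muscle in the values of Cpt1b and Ppargc1a was not tested. Cpt2, which releases the chain from carnitine inside mitochondria, was at -0.10 (SE 0.083) and Crat, the acetyl carnitine transferase, at -0.017 (SE 0.071).

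The core enzymes of the mitochondrial spiral had medians near 0. The 4 tested acyl-CoA dehydrogenases, which take the first step for chains of different length, had log2 fold changes from -0.020 to 0.070. Acadm, the medium-chain enzyme, measured 4372, 3944 and 3914 in S pools and 4123, 3845 and 4079 in congenic pools. The groups overlapped. Acadl, the long-chain enzyme and the member on chromosome 9, gave 2579, 2685 and 2584 in S pools and 2626, 2456 and 2806 in congenic pools. Its means were 2616 ± 60.2 and 2629 ± 175 (SD, n = 3 each), with a log2 fold change of 0.0054 and a 95% interval of -0.12 to 0.13. Acadsb, which acts on short branched chains, had signals of 13.4 to 33.1 and was not tested.

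The 7 genes of the later steps, the hydratases, hydroxyacyl-CoA dehydrogenases and thiolases, had a median of 0.00032 and 4 positive values. They ran from -0.053 for Hadhb, the thiolase subunit of the trifunctional protein, to 0.11 for Echs1, the short-chain hydratase. The partner subunit Hadha was at 0.031, and the standard errors were 0.051 for Hadhb and 0.061 for Hadha. Dimmer second probe sets of Hadha, Acaa2 and Acat1 were at -0.099 (SE 0.11), -0.19 (SE 0.16) and -0.18 (SE 0.088), each with overlapping groups. The mitochondrial thioesterase Acot2 was at -0.055 (SE 0.10), and its other probe sets at -0.15 (SE 0.096) and -0.18 (SE 0.15). Electrons from the dehydrogenases pass through the flavoprotein of Etfa and Etfb to the oxidoreductase of Etfdh. Etfb gave 2709, 2493 and 2445 in S pools and 2592, 2383 and 2716 in congenic pools, and the 3 genes had log2 fold changes between -0.042 and 0.0076. In both of these steps the S and congenic arrays overlapped for every gene.

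Unsaturated chains need auxiliary enzymes. Decr1, the mitochondrial dienoyl-CoA reductase, measured 2339, 2325 and 2291 in S pools and 2230, 2168 and 2225 in congenic pools. The groups did not overlap and the arrays of each group were close together. The log2 fold change was still only -0.070 (SE 0.045, adjusted p 0.80 by limma) and lay between -0.079 and -0.057 with each array left out. Eci1, the mitochondrial enoyl-CoA isomerase, was at -0.017 (SE 0.067) in its bright probe set, 1367659_s_at.

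A dim second probe set of Eci1, named after its values were seen, gave other values. Probe set 1370961_at gave 25.8, 14.2 and 24.0 in S pools and 1.80, 2.56 and 5.84 on the congenic arrays. It lay below the filter, at a mean of 12.4. Without the filter its adjusted limma p was 0.58, and no fold change is given for signals this low. The bright probe set of the same gene measured 2319, 2158 and 2176 in S pools and 2414, 2045 and 2128 in congenic pools, and its groups overlapped. Which part of the transcript each probe set reads was not analysed here.

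Peroxisomal genes had a median log2 fold change of -0.065 over 8 tested genes, against -0.019 over the 22 mitochondrial genes. The peroxisomal median was -0.042 without S replicate 1, and the difference between these medians was not tested. Of the 8 peroxisomal genes 6 were negative (75.0%, against 52.6% of all genes). In 3 of the 8 all congenic arrays lay below all S arrays, a separation found for 7.07% of all genes. With median centring it was 2 of the 8, where all genes gave 6.19%. Eci2, an isomerase of unsaturated chains found in peroxisomes, measured 2358, 2139 and 2120 in S pools and 1937, 2098 and 1994 in congenic pools. The log2 fold change was -0.13 (SE 0.058, 95% interval -0.26 to -0.0022), with an unadjusted limma p of 0.047 and an adjusted p of 0.75. Without S replicate 1, which had the highest signal, it was -0.084, and without congenic replicate 1 it was -0.11.

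Ehhadh, the peroxisomal bifunctional enzyme and a classical PPAR alpha target, measured 656, 641 and 637 in S pools and 598, 580.0 and 618 on the congenic arrays. The groups did not overlap, with means of 645 ± 10.1 and 599 ± 18.9 (SD, n = 3 each). The log2 fold change of -0.11 (SE 0.058) had an adjusted limma p of 0.79 and stayed at -0.10 without congenic replicate 1. Acox3, an oxidase of branched chains, was dim, at 34.8, 30.2 and 29.2 in S pools and 28.3, 24.1 and 25.2 on the congenic arrays. Its groups did not overlap, and its log2 fold change was -0.18 (SE 0.13). Acox2, the oxidase of bile acid precursors, was at 0.074 (SE 0.12).

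Decr2, the peroxisomal dienoyl-CoA reductase, named after its values were seen, measured 1210, 970 and 945 in S pools and 995, 879 and 862 in congenic pools. Congenic replicate 1 lay above S replicates 2 and 3, so the groups overlapped. The log2 fold change was -0.18 (SE 0.096), -0.25 without congenic replicate 1 and -0.072 without S replicate 1, the array with the highest Decr2 signal. The remaining peroxisomal genes were level. Scp2, the sterol carrier and thiolase, gave 2667, 2613 and 2586 in S pools and 2553, 2594 and 2720.0 on the congenic arrays. Hsd17b4, the second bifunctional enzyme, gave 1618, 1593 and 1495 in S pools and 1567, 1493 and 1562 in congenic pools. Their 95% intervals were -0.11 to 0.11 and -0.14 to 0.095, and Crot, the octanoyl carnitine transferase that exports chains, was at 0.015 (SE 0.071).

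Set out by array, the mitochondrial genes stayed close to their own means. Their median difference from each gene's mean over the 6 arrays was 0.0018, 0.014 and 0.013 in S pools and -0.0085, -0.028 and 0.010 on the congenic arrays (log2). The peroxisomal median was 0.068, 0.030 and 0.0021 in S pools and 0.0037, -0.036 and -0.060 on the congenic arrays. The peroxisomal genes were highest on S replicate 1 and lowest on congenic replicate 3, and S replicate 3 and congenic replicate 1 overlapped. Over all tested genes the same median stayed between -0.0087 and 0.0079. The 4 regulators and other targets scattered more, from -0.16 on congenic replicate 3 to 0.11 on S replicate 1. Of the 34 member genes, 13 (38.2%) had their lowest signal on congenic replicate 2, which was the lowest array for 15.0% of all genes. S replicate 1 was the highest array for 12 of the 34 (35.3%), where all genes gave 22.2%.

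**Figure D4:**
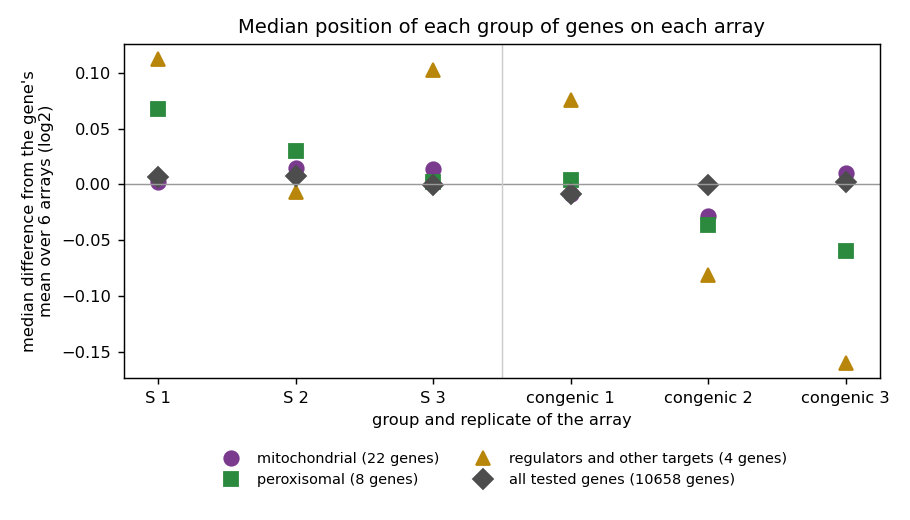
Median difference from each gene's own mean over the 6 arrays (log2, y axis) on each array (x axis) for the mitochondrial, peroxisomal and regulator groups and for all tested genes. The mitochondrial median stays between -0.028 and 0.014, and the peroxisomal median goes from 0.068 on S replicate 1 to -0.060 on congenic replicate 3.

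When the liver-bearing congenic replicate 1 was left out, the count of member probe sets with an unadjusted limma p under 0.05 was similar. The probe sets behind that count were mostly others. More member genes had groups without overlap, as was so over all genes, and the earlier 6 were among them. The median log2 fold change over the 34 genes was -0.040, with -0.026 for the mitochondrial genes, -0.071 for the peroxisomal genes and -0.17 for the regulators and other targets. The last of these had been -0.078 with all arrays, and it was 0.0068 without congenic replicate 3. The unadjusted p was under 0.05 for 3 of the 45 member probe sets (6.67%), those of Ppargc1a, Decr2 and Angptl4, against 6.32% over the array. The brighter Ppargc1a probe set was the one among the earlier 4 to stay under 0.05, while the unadjusted limma p was 0.090 for Acsl1, 0.14 for Eci2 and 0.15 for the other Ppargc1a probe set. By limma 0 passed the adjusted threshold. The 2 remaining congenic arrays lay below all S arrays for 10 member genes (29.4%), where all genes gave 12.6%, and above them for 0, where all genes gave 11%. The 10 were the 6 named above with Acaa2, Eci1, Decr2 and Angptl4.

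In whole kidney RNA fewer cells of a type and less RNA per cell cannot be told apart. Fatty acid oxidation is concentrated in the proximal tubule, so the markers of nephron segments were set beside the members. The summed signal of 10 proximal tubule markers was 25760.0 to 28837 in S and 26208 to 26952 in congenic pools, with S replicate 1 the highest, and 8 of the 10 markers had negative log2 fold changes. The sum of 4 markers of the thick ascending limb and distal tubule was 11013 to 11474 in S and 11656 to 12231 in congenic pools. The sum of 3 collecting duct markers was 3574 to 4100 and 4319 to 5089. These distal sums did not overlap between the groups, but their members were uneven. Umod, Slc12a1 and Kcnj1 had positive log2 fold changes with overlapping groups and Slc12a3 was at -0.077. Of the collecting duct markers Aqp2 was at 0.23 and Aqp3 at 0.43, without overlap, and Avpr2 at 0.0043. The part of segment proportions in the values of the members was not tested.

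The other genes of fatty acid handling moved no further as a whole. Of 133 listed genes 109 were tested, and their median log2 fold change was -0.013, with 62 negative and 47 positive. The unadjusted limma p was under 0.05 for 6 of the 109 genes (5.50%), where all genes gave 6.62%, and 0 passed the adjusted threshold. The genes of uptake and activation (17 tested) had a median of -0.028, the other mitochondrial genes (18) of -0.023, the other peroxisomal genes (21) of 0.0072, the other PPAR alpha targets (27) of -0.031 and the regulators (24) of -0.0086. Without congenic replicate 1 the first 2 of these medians were positive, at 0.0055 and 0.0062, and without S replicate 3 the other peroxisomal genes were at -0.043. The 2 tested ketone body genes were at 0.049 and 0.086.

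Those 6 genes went both ways. Slc22a5, the carnitine transporter OCTN2, measured 1472, 1316 and 1278 in S pools and 1262, 1134 and 1176 in congenic pools, a log2 fold change of -0.18 (SE 0.068). Slc27a4, a fatty acid transport protein, was at -0.22 (SE 0.084) and Acad10, an acyl-CoA dehydrogenase relative, at -0.17 (SE 0.074). In the other direction, Far1, the peroxisomal reductase that makes fatty alcohols for ether lipids, measured 55.9, 61.9 and 84.5 in S pools and 94.5, 96.6 and 98.2 on the congenic arrays, a log2 fold change of 0.45 (SE 0.13). Cyp4a8, a fatty acid omega-hydroxylase, was at 0.13 (SE 0.047) and Crebbp, a general coactivator, at 0.18 (SE 0.068). The smallest adjusted limma p among the 6 was 0.71. Over the whole wider list the groups did not overlap for 9 genes lower in congenic pools (8.26%) and 6 higher (5.50%), near the 7.07% and 5.63% of all genes.

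Of the 24 tested regulators of this wider list 10 had positive and 14 negative log2 fold changes. Pprc1, Ppargc1b, Esrra and Pparg are described after their values were seen, and none had an unadjusted limma p under 0.05. Pprc1 and Ppargc1b, relatives of Ppargc1a, had positive log2 fold changes of 0.17 (SE 0.095) and 0.050 (SE 0.12). Esrra, the estrogen-related receptor through which Ppargc1a acts on mitochondrial genes, measured 245, 248 and 267 in S pools and 209, 240.4 and 226 on the congenic arrays, a log2 fold change of -0.16 (SE 0.079, adjusted p 0.78 by limma). Pparg, the fat cell receptor, was dim, at 43.0, 47.6 and 74.2 in S pools and 37.2, 40.7 and 41.1 on the congenic arrays. Its highest signal by far was that of S replicate 3. In this wider list 4 genes stood out on congenic replicate 1. Fabp1, the liver fatty acid binding protein, was at 226 there and 0.501 to 11.6 elsewhere, and Apoa1 at 311 against 1.53 to 12.6. Apoc3 was at 758 against 139 to 164, and Creb3l3 at 114 against 46.0 to 66.0. Among the members, that array was the highest for 5 of the 34 (14.7%), where all genes gave 16.1%. Angptl4 was among these 5, at 888 against 613 to 737 elsewhere.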

How the data were processed

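Per the submitters' processing notes the authors used MAS5, and they deposited a linear intensity (the signal) for each probe set. Its version, scaling target and detection calls are not given in the sources used here. All 6 arrays had the same mean of 150.05 without the top and bottom 2% of probe sets, so a shift common to most transcripts is not visible. Symbols came from the platform annotation, updated by gene ID to RefSeq (GRCr8), and 57 control probe sets were left out.

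Values were taken as log2(signal + 16). Probe sets with a mean over all arrays below the 40th percentile (25.6) were dropped, and limma 3.58.1 (lmFit and eBayes with trend, R 4.3.3) was run on the other 18625, 2-sided, with Benjamini-Hochberg adjustment. The fit was tested on simulated data. The probe set of highest mean over the arrays stood for a gene. Signals of different probe sets were not compared as levels. The number of arrays limits the precision, with a median standard error of 0.073 over the member probe sets. With 3 against 3 an exact permutation test cannot go below 0.1, so none was run.

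Every member is accounted for. By rule, values for each array are given for members with an unadjusted limma p under 0.05, with no overlap between groups or among the 3 brightest of their compartment. The rule also names Ppara, Ppargc1a, Pdk4 and Angptl4. Values of Cpt1a, Cpt1b, Acot1, Decr2 and Eci1 are given outside this rule. The members and lists were chosen with earlier results of these data known. Alternatives were other offsets, filters, scalings, eBayes settings, a replicate block, and each array left out.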

Additional observations from a re-analysis of the deposited data

How the results depend on the processing

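The number of probe sets called over the whole array was 0 under every alternative but 1: without congenic replicate 2 it was 1, no member, so the range with each array left out was 0 to 1. The count of 4 member probe sets at an unadjusted limma p under 0.05 became 2 to 4 with each array left out. That was 4.44% to 9.09% of them, against 4.81% to 9.17% of all probe sets. It was 2 without congenic replicate 3 (4.44%, against 5.83%) and 1 with eBayes without trend (2.22%, against 6.48%). The mitochondrial median of -0.019 became -0.035 with quantile normalization and ran from -0.040 to -0.0014 with each array left out. The median over all members ran from -0.040 to -0.0072 there, the latter without congenic replicate 2. The median of the 4 regulators and other targets was 0.0068 without congenic replicate 3. The count of genes without overlap, 6 in the full data, was 4 with median centring (11.8%, where all genes gave 6.19% lower). It ran from 6 to 10 with each array left out. Fewer arrays separate more easily: over all genes the share with congenic arrays lower was 7.07% in the full data and 11.1% to 14.9% with an array left out. Of 440 values of single members under the alternatives, 396 kept their sign and 0 passed the adjusted threshold. The filters and the replicate block leave a fold change as it was, so part of the 440 repeats the main estimate. For the 3 genes with an unadjusted limma p under 0.05 the sign was kept in 39 of 39. Their groups did not overlap, so another offset or filter, the block or a left-out array could not turn it. That count is therefore no measure of stability. Same-numbered arrays of the 2 groups were not paired by the labels, and their deviations correlated at 0.037, 0.014 and 0.021. Differently numbered arrays of the 2 groups gave -0.046 to 0.038, a range that holds all 3 of these values. With the replicate block 4 member probe sets (8.89%, against 6.94% of all) had an unadjusted limma p under 0.05, and 0 probe sets were called. Probe sets below the filter, among them that of Ppara, were given as signals without a fold change.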
